A study of Mus musculus with 92 samples.

Results

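Quadriceps muscle of 92 mice was divided by the amount of macrophage RNA it held, and the 23 animals with the most were compared with the 23 with the least. The animals were DOz mice, a Diversity Outbred stock in which each mouse inherits its own mix of founder alleles. All 92 were about 18 to 20 weeks old and had eaten standard chow throughout life. The labels give 1 group only and no age for each animal, so whether the high and low groups differ in age within that range was not tested. The high and low groups are not groups of the study: they were chosen by measured values, from a score that averages the standardised levels of Csf1r, Mrc1 and Ctss. The 46 animals between them, called the middle animals here, were used to look at the same genes in samples that neither group holds. The series asks how very long-chain ceramides in muscle relate to insulin resistance, and lipid and insulin measurements were not analysed here.

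Macrophages live in the connective tissue around muscle fibres and their blood vessels, where they clear debris, sample antigen and respond to damage. They depend on the receptor encoded by Csf1r, which binds the growth factors CSF1 and IL-34. Mrc1 encodes the mannose receptor CD206, an uptake receptor typical of resident tissue macrophages, and Ctss encodes cathepsin S, a lysosomal protease that prepares MHC class II molecules for antigen. In RNA from whole muscle, more cells of a type and more RNA per cell cannot be told apart.

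The score ran from -1.92 to 3.19, in SD units averaged over the 3 genes. It had no gap at either edge: the last animal inside the high group scored 0.465 and the first outside it 0.458, and at the low edge the values were -0.582 and -0.570. Its top was stretched, since 2 animals stood at 3.19 and 2.83. Levels below are the deposited log2 values, close to a log2 CPM scale (counts scaled to a common library size), so a difference of 1 is a doubling in fold terms.

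Csf1r lay between 3.79 and 5.33 in the high group, with a median of 4.23, and between 2.37 and 3.65 in the low group, with a median of 3.16. Mrc1 ranged from 3.73 to 6.32 (median 4.39) against 2.49 to 3.65 (median 3.29). Neither gene overlapped between the groups, as the choice of animals makes likely. Ctss spread most, from 2.26 to 7.0 (median 3.22) in the high group and from 0.32 to 2.38 (median 1.47) in the low group, and 2 low animals exceeded the lowest high animal. These 3 genes defined the groups and are given as a description, with no test. Across the 92 animals their levels were correlated in pairs, with Pearson's r of 0.756 for Csf1r with Mrc1, 0.681 for Csf1r with Ctss and 0.738 for Mrc1 with Ctss.

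The label was checked against 18 other pan-macrophage genes. Their mean standardised level followed the score with r = 0.943 over 92 animals, and 19 of the 23 high animals were also among the 23 highest by this list. The summed level of the 18 genes had a median of 143 CPM in the high group (range 66.3 to 748) and 64.3 in the low group (range 45.1 to 78.4), and 22 of 23 high animals lay above every low animal. Fibroblast content moved with it: a score of 14 fibroblast genes correlated with the macrophage score at r = 0.834, and at 0.799 without the 2 highest-scoring animals. The fibroblast genes summed to a median of 2065 CPM in the high group (1571 to 3407) and 1333 in the low group (1005 to 1756). Scores of adipocyte (r = 0.178), endothelial (r = -0.095), Schwann cell (r = -0.082) and blood genes (r = 0.067) were nearly flat against it. All these correlations are descriptions across animals that share library scaling. The summed linear value of a library had a median of 969518 in the high group and 1042564 in the low group. The sample titles fall into 5 runs of numbers, whose meaning the labels leave unstated and which are called title-number blocks here. The 4 blocks with animals of both groups held 10 and 5, 5 and 3, 5 and 6, and 3 and 5 high and low animals, while the remaining block held 0 high and 4 low animals.

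**Figure D1:**
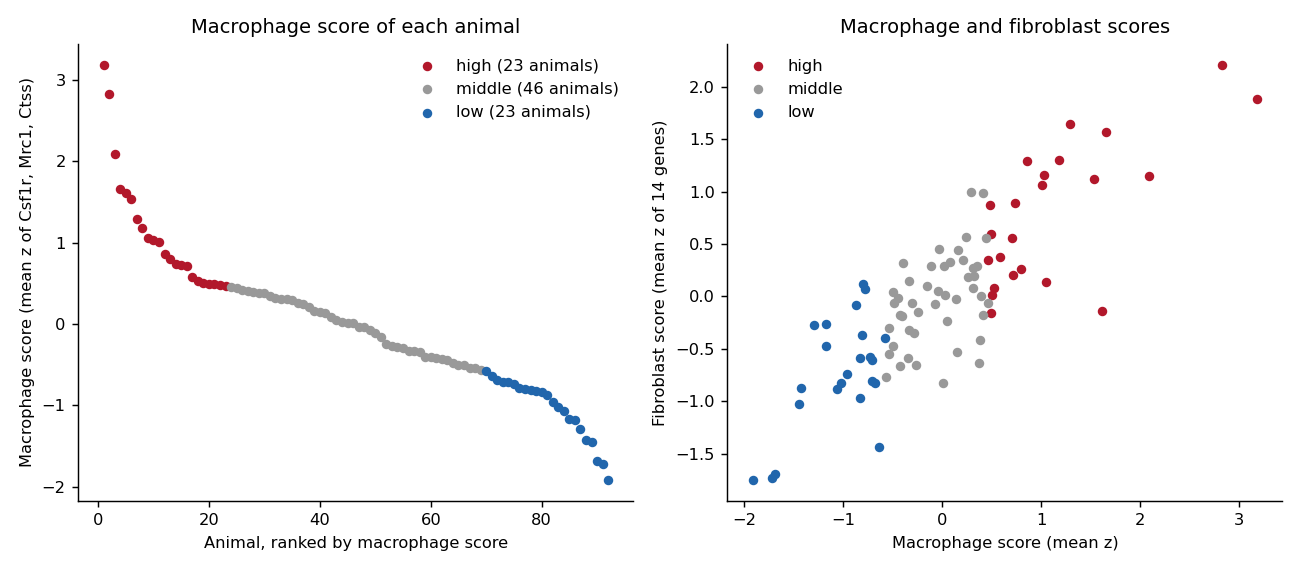
Left, the macrophage score of each of the 92 animals (mean z of Csf1r, Mrc1 and Ctss) against its rank, with the 23 high animals in red, the 46 middle animals in grey and the 23 low animals in blue. Right, the fibroblast score (mean z of 14 genes) against the macrophage score for the same animals. The ranks run without a gap except at the top, where 2 animals reach 3.19 and 2.83, and the 2 scores rise together (r = 0.834).

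Macrophage genes led the higher side of the comparison, and differences on the lower side were small. Of 13438 genes tested, 1149 were higher in the high group (8.55%) and 660 were lower (4.91%), by limma with Benjamini-Hochberg adjustment over all genes at an adjusted p of 0.05. The 2 sides differed in size. The higher genes had a median difference of 0.55 and 151 of them were higher by at least 1, while the lower genes had a median difference of -0.18 and 1 was lower by at least 1. The median over all genes tested was -0.02. The counts depended on how libraries are scaled. With the deposited values 63.5% of the genes past the threshold were higher, after each animal was centred on its median 40.7% (1043 higher and 1517 lower, 7.76% and 11.3% of all genes), and after quantile normalization 762 were higher (5.67%) and 394 lower (2.93%). With the summed value and median of each library as covariates, 52 genes were higher and 3 lower. Of the 105 genes named here that passed with the deposited values, 19 passed in that fit, among them C3ar1, Cd68, Itgam, C1qa, Ccl8, Ccr2 and Lox, while 85 kept their direction and lost the call and 1 changed sign. In the 4 blocks that hold both groups, 1073 of the higher and 575 of the lower genes had the same sign in every block. With the fibroblast score as a covariate no gene passed (0 higher and 0 lower, 846 genes at an unadjusted p under 0.05). Some differences stayed about as large there with wider errors, such as Gpnmb at 1.57 ± 0.49 and Rsad2 at 1.13 ± 0.45 against 1.67 ± 0.30 and 1.17 ± 0.27 without the covariate, and all 18 pan-macrophage genes were above 0 (median 0.60, against 1.33 without it). Others changed sign, such as Tlr7 at -0.44. In that fit the part of fibroblast content in the differences given here cannot be told apart from that of macrophage content.

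**Figure D2:**
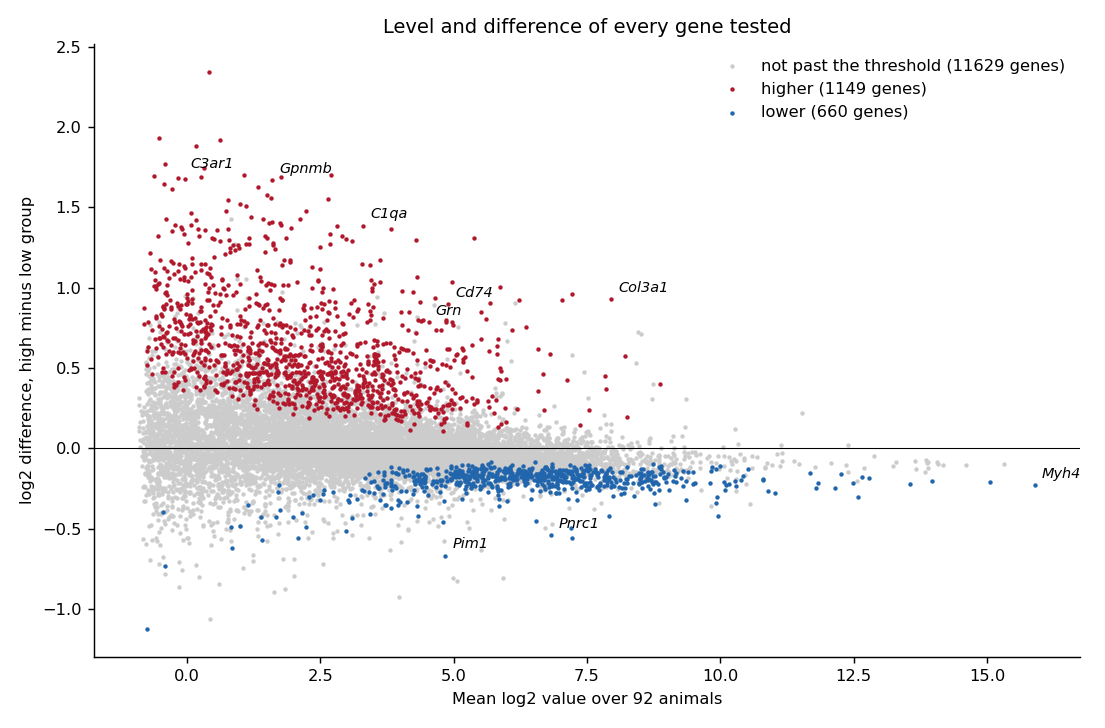
Difference between the high and the low group (log2, y axis) against the mean log2 value over 92 animals (x axis), 1 point a gene, for 13438 genes. The 1149 higher genes (red) are mostly of low to medium level and reach over 2, while the 660 lower genes (blue) sit close under 0 and extend to the highest values on the x axis, such as Myh4.

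The 10 genes with the largest increase, among those that passed and had a mean of at least 1, were all known from myeloid cells. C3ar1, the receptor for the complement fragment C3a, ranged from 0.97 to 4.22 (median 1.89) in the high group and from -0.22 to 1.05 (median 0.36) in the low group. All but 1 of the 23 high animals exceeded every low animal. The difference was 1.70 ± 0.18 (SE, limma, adjusted p = 1.51e-09). Cd68, a lysosomal glycoprotein of macrophages, differed by 1.69 ± 0.18 (adjusted p = 1.4e-09) with 20 of 23 high animals above every low one. Gpnmb, a membrane glycoprotein of lipid-laden phagocytes, differed by 1.67 ± 0.30 (adjusted p = 5.29e-05), but its groups overlapped, with 0.73 to 6.42 in the high and 0.10 to 2.14 in the low group. The chemokines Ccl9 (1.70 ± 0.23) and Ccl6 (1.55 ± 0.23), the actin regulator Nckap1l of blood cells (1.63 ± 0.17), the integrin chains Itgb2 (1.57 ± 0.18) and Itgam (1.56 ± 0.16), the oxidase subunit Ncf1 (1.51 ± 0.19) and the pore-forming protein gene Mpeg1 (1.48 ± 0.24) completed the set.

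**Figure D3:**
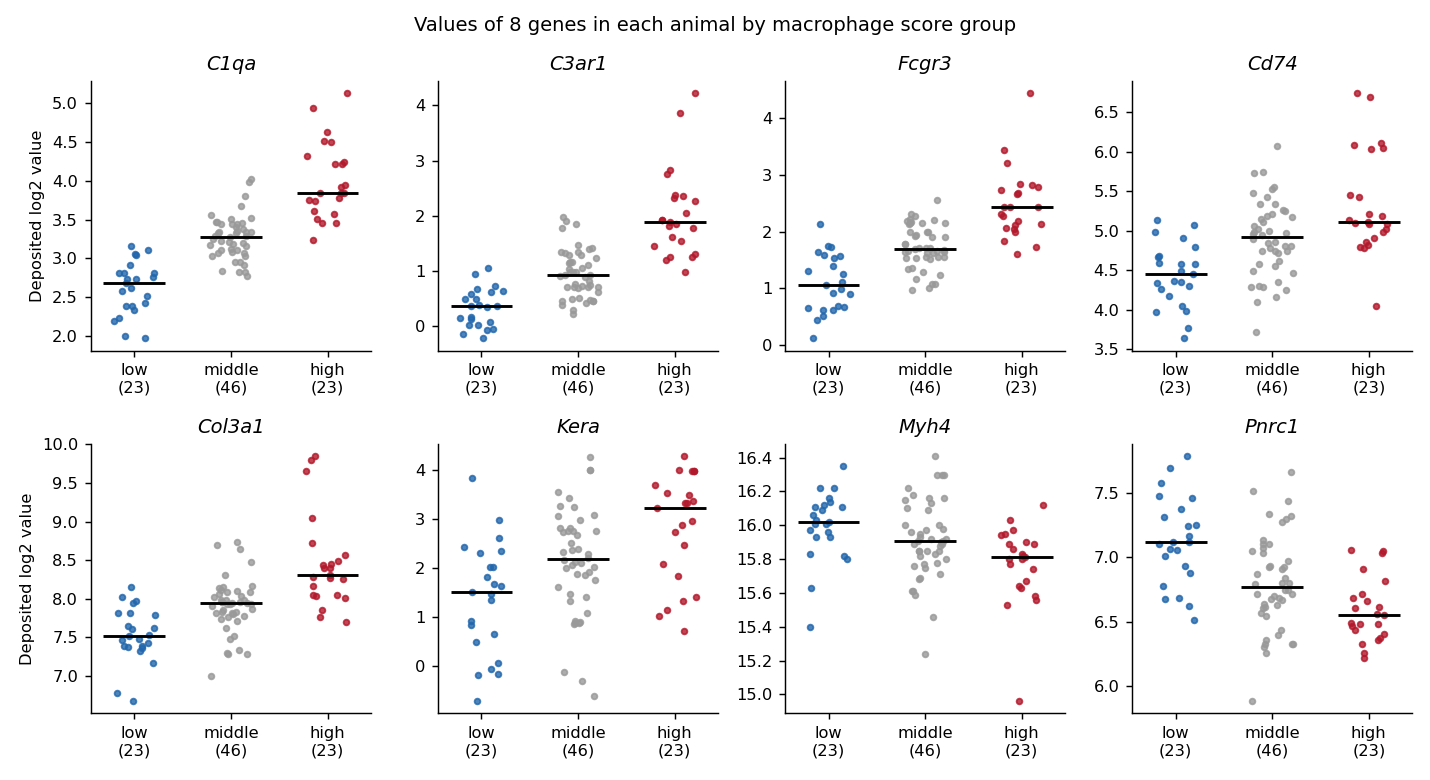
Deposited log2 value (y axis) of 8 genes in each animal, by macrophage score group (23 low, 46 middle and 23 high animals); black lines are medians. C1qa separates the high from the low group, C3ar1 does so but for 1 high animal, the other genes overlap, and Myh4 and Pnrc1 lie lower in the high group.

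The 5 genes whose levels were most like the score over 92 animals were Lcp1 (r = 0.93), C1qa (r = 0.91), Laptm5 (r = 0.91), C1qc (r = 0.90) and Itgam (r = 0.89). Lcp1 encodes L-plastin, an actin-bundling protein of white blood cells, and Laptm5 a lysosomal membrane protein of the same cells. Every high animal exceeded every low animal for Lcp1, C1qa, Laptm5 and C1qc. C1qa, for example, ranged from 3.23 to 5.13 (median 3.85) against 1.97 to 3.16 (median 2.68), a difference of 1.39 ± 0.12 (limma, adjusted p = 3.33e-11). For Lcp1 the difference was 1.38 ± 0.13 and for Laptm5 1.33 ± 0.12.

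PU.1, the product of the pan-macrophage gene Spi1, is a transcription factor that macrophages need, and its binding sites commonly hold the letters GAGGAAG. The 250 bases before the start site were searched for GAGGAAG on both strands in RefSeq promoters of the GRCm38.p6 build, which the name mm10 also denotes. The sequences shown are the rule gene Mrc1 and the 3 of the 5 genes most like the score whose window holds the letters, 5′ to 3′ on the gene's strand, with matches in capitals (CTTCCTC is GAGGAAG on the other strand).
Mrc1: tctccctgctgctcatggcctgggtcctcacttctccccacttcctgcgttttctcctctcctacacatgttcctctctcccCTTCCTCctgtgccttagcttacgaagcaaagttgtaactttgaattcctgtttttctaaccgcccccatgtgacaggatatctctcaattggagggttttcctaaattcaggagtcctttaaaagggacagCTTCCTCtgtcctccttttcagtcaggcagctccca
C1qc: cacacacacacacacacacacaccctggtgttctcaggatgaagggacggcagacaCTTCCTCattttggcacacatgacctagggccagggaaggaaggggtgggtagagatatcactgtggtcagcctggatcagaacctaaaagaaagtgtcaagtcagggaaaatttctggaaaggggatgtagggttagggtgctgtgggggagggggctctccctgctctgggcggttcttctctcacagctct
Laptm5: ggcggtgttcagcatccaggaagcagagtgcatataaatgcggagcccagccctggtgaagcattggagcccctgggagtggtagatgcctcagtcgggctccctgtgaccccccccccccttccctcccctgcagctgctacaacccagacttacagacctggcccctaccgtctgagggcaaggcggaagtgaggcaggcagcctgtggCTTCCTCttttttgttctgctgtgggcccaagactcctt
Itgam: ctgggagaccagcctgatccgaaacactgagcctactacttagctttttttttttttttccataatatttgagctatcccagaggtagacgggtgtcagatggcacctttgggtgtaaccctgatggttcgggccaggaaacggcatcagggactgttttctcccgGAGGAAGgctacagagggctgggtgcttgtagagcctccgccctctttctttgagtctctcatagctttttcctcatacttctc
These are chr2:14229164-14229413 (plus strand), with matches that begin 168 and 36 bases before the start site, chr4:136892915-136893164 (minus strand, 194 bases), chr4:130913066-130913315 (plus strand, 39 bases) and chr7:128062390-128062639 (plus strand, 84 bases). The windows of Lcp1, C1qb, Cd68, C3ar1, Ctss and Grn held no match, and C1qa and Csf1r were not searched. Among 10115 measured genes with a promoter in the table, 12.8% had the letters, against 18.0% of 874 higher genes, 25.9% of 112 genes higher by at least 1 and 13.9% of 510 lower genes. Letters of other factors were also more frequent among the 112 genes: TGANTCA, of AP-1, stood in 16.1% against 5.42% of all windows, and GAAANNGAA, of IRF factors, in 15.2% against 7.40%. TCACGTGA, an E-box, stood in 0.893% against 1.83%. All were searched on both strands, and none of these strings contains another. A match is a description of the letters and not a binding site.

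Surface and lineage genes of macrophages moved as a block. All 18 pan-macrophage genes were higher, with a median difference of 1.33 and a range of 0.82 to 1.75, against 8.55% of all genes. Among them were Cd84 (1.75 ± 0.23), a self-binding receptor of the SLAM family, and Ms4a7 (1.68 ± 0.25), a membrane-spanning protein of tissue macrophages. Of 19 genes typical of resident macrophages 15 were higher, 1 was lower and 3 did not pass, with a median difference of 0.88. The chemokine Ccl8 had the widest difference of any gene tested (2.34 ± 0.33, limma, adjusted p = 8.26e-07), although its range of -0.80 to 4.35 in the high group overlapped that of -2.41 to 2.14 in the low group. Folr2, a folate receptor of resident macrophages, differed by 1.48 ± 0.23, and F13a1, the coagulation factor XIII A chain, by 1.36 ± 0.15. The lectin gene Cd209f (1.25 ± 0.37) has close copies whose reads may be shared, so its value is less certain. The member that was lower was Maf, a transcription factor found in macrophages and in other cells (-0.28 ± 0.062, adjusted p = 0.000994), named after its value was seen. Its median was 7.98 in the high and 8.34 in the low group, and no high animal exceeded the highest low animal.

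Of 11 genes linked to lipid-handling macrophages 5 were higher, beside 8.55% of all genes, and none was lower, with a median of 0.40. Besides Gpnmb these included Apoe, the apolipoprotein that carries cholesterol away from macrophages (1.01 ± 0.13), the fatty acid-binding protein gene Fabp5 (0.61 ± 0.16) and the cholesterol exporter gene Abca1 (0.44 ± 0.12). The other 6 did not pass. Of these the highest in level were Lpl (0.075 ± 0.10), Cd36 (0.073 ± 0.11) and Plin2 (0.14 ± 0.098). With the fibroblast score as a covariate 7 of the 11 genes stayed above 0, and Abca1 was at 0.03 ± 0.18.

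Receptors that read antibody and debris, and the kinases behind them, were higher throughout. All 15 tested genes of Fc receptor and ITAM signalling passed as higher, beside 8.55% of all genes, with a median of 1.03 and a range of 0.45 to 1.69. Fcgr3, a low-affinity receptor for IgG, ranged from 1.61 to 4.43 (median 2.42) in the high group and from 0.12 to 2.13 (median 1.07) in the low group. In 16 of 23 high animals it exceeded every low animal, and the difference was 1.39 ± 0.16 (limma, adjusted p = 2.26e-08). Its partner chain Fcer1g differed by 1.27 ± 0.18, the beta-glucan receptor Clec7a by 1.69 ± 0.30 and the inhibitory receptor Lilrb4a by 1.44 ± 0.23, the last a member of a family with close copies. GAGGAAG stood in 5 of the 11 promoter windows searched for this list, Fcgr3 among them, beside 4 of 14 for the pan-macrophage, 3 of 15 for the interferon, 4 of 24 for the lysosome and 1 of 9 for the complement list, and 12.8% of all windows.

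The complement list was higher in 15 of 16 genes, beside 8.55% of all genes, with a median of 1.0. C1qa, C1qb and C1qc encode the 3 chains of C1q, the recognition molecule of the classical pathway, and differed by 1.39, 1.30 and 1.29. The receptor genes C3ar1 and Itgb2 led the list. The exception was Cd59a, which encodes a membrane inhibitor of the final complement step and differed by 0.12 ± 0.13 (limma, adjusted p = 0.61). Its ranges nearly coincided, at 3.39 to 5.40 and 3.29 to 5.24.

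MHC class II genes were higher in 9 of 11 cases, beside 8.55% of all genes (median 0.75). Cd74, the invariant chain that guides class II molecules to the endosome, ranged from 4.04 to 6.74 (median 5.12) in the high and 3.63 to 5.14 (median 4.45) in the low group. The groups overlapped, with 10 of 23 high animals above every low animal, and the difference was 0.90 ± 0.15 (limma, adjusted p = 3.12e-05). H2-Aa (0.90 ± 0.16), H2-DMb1 (1.19 ± 0.21), whose product loads peptide, and the costimulatory ligand Cd86 (0.97 ± 0.20) were higher as well. The count was 6 of 11 after quantile normalization, beside 5.67% of all genes.

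The degradative machinery split. Of 17 genes of the phagocyte oxidase and of uptake receptors 13 were higher, beside 8.55% of all genes (median 0.72), led by the scavenger receptor Msr1 (1.61 ± 0.23), Ncf1, the oxidase core Cybb (1.37 ± 0.18) and the endosomal RNA sensor Tlr7 (1.32 ± 0.31). Of 29 lysosome genes 9 were higher and 1 lower, beside 8.55% and 4.91% of all genes, while 19 did not pass, and the median was 0.13. Lgmn, which encodes the protease legumain, separated the groups completely, with 4.73 to 6.80 (median 4.99) in the high and 4.12 to 4.72 (median 4.46) in the low group, a difference of 0.74 ± 0.12 (limma, adjusted p = 8.25e-06). Grn, the lysosomal protein progranulin, differed by 0.79 ± 0.087, the protease gene Ctsh by 0.73 ± 0.12 and the acid lipase Lipa by 0.65 ± 0.12. Tfeb, a transcription factor for lysosome genes in many cell types, was lower (-0.27 ± 0.067, adjusted p = 0.00354) and is named after its value was seen. The summed lysosome list was nearly level, with medians of 3248 CPM in the high and 3180 in the low group.

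Of 13 genes of the CSF1 axis and related factors 7 were higher, beside 8.55% of all genes (median 0.36). The growth factor Csf1, named after its value was seen, ranged from 3.29 to 4.35 (median 3.67) against 2.50 to 3.75 (median 3.21), a difference of 0.55 ± 0.098 (limma, adjusted p = 5.23e-05). The groups overlapped, with 8 high animals above every low one. Cebpa (0.78 ± 0.24), a myeloid and adipocyte transcription factor, Nrros (0.63 ± 0.12), a carrier of latent TGF-beta, the transcription factor Runx1 (0.58 ± 0.19, not after quantile normalization) and the TGF-beta receptor Tgfbr2 (0.56 ± 0.09) were higher too.

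Genes of recruitment were higher in 8 of 14 cases, beside 8.55% of all genes (median 0.45). Among them was Ccr2, a receptor typical of monocyte-derived cells (1.31 ± 0.17), beside Ccl9 and Ccl6. Ccr2 exceeded every low animal in 19 of 23 high animals. Among genes of inflammatory signalling 5 of 12 were higher, beside the same 8.55% (median 0.42): the caspase Casp1 (0.90 ± 0.17), the alarmin Il33 (0.66 ± 0.14), the adhesion molecule Icam1 (0.35 ± 0.085), the receptor Il1r1 (0.35 ± 0.12) and 1 other. That count was 2 after quantile normalization, beside 5.67% of all genes, with the calls for Icam1 and Il1r1 lost. Tnfaip3, an inhibitor of NF-kB signalling, did not pass (0.51 ± 0.18, adjusted p = 0.0541). The cytokine genes Tnf, Il1b, Il6 and Il10 were not analysed here.

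Interferon response genes were higher in 12 of 18 cases, beside 8.55% of all genes (median 0.48), and in 5 of 18 after quantile normalization, beside 5.67%. Rsad2, which encodes the antiviral enzyme viperin, differed by 1.17 ± 0.27 with overlapping ranges of 1.28 to 6.42 and -0.034 to 2.98. Oasl2 (0.92 ± 0.19), the factor Irf7 (0.80 ± 0.21) and Ifit1 (0.77 ± 0.23, a call lost after quantile normalization) followed, and Stat2 did not pass (0.28 ± 0.13, adjusted p = 0.142). The letters GAAANNGAA, as bound by interferon regulatory factors, stood in the promoter window of 9 of the 15 genes of this list that have one (60%), against 7.40% of all genes. Of 12 genes of iron and haem handling 4 were higher, beside 8.55% of all genes (median 0.39): the phagosomal metal transporter Slc11a1 (0.77 ± 0.19), the ferritin light chain Ftl1 (0.59 ± 0.17), the haem oxygenase Hmox1 (0.53 ± 0.18) and the ferroxidase Cp (0.50 ± 0.14). The call for Hmox1 was lost without the 2 highest-scoring animals (adjusted p = 0.0653), as was that for Il1r1 (adjusted p = 0.107).

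**Figure D4:**
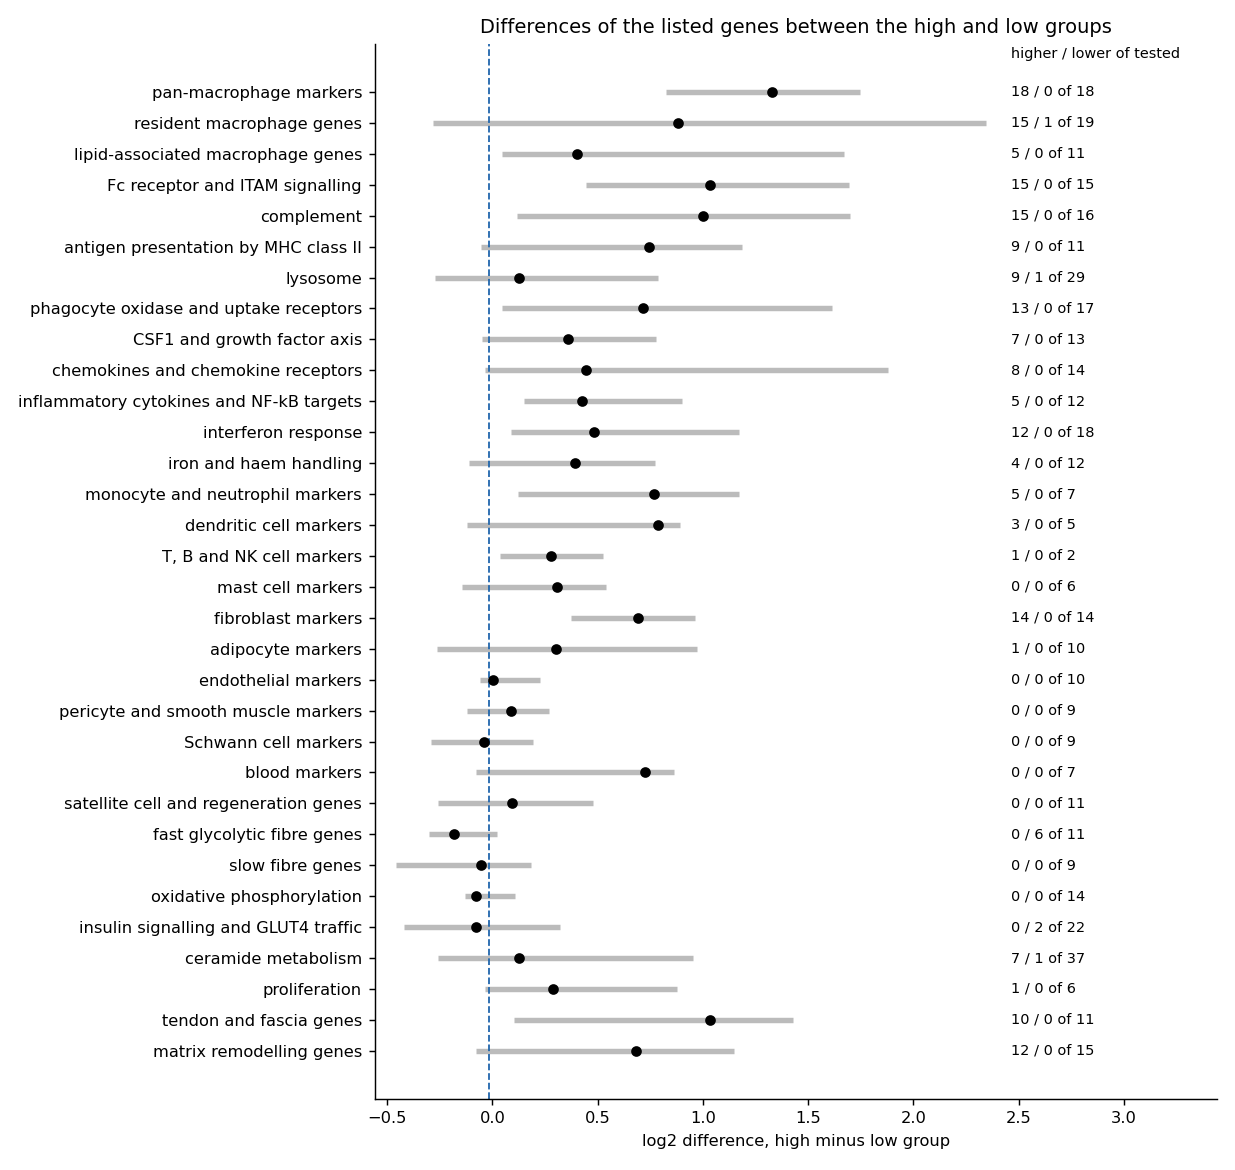
Difference between the high and the low group (log2, x axis) for each gene list: points are medians of the tested members, grey bars run from the smallest to the largest difference, and the dashed line is the median of all 13438 genes (-0.02). Counts at the right give members higher and lower at an adjusted p of 0.05 out of those tested. All 18 pan-macrophage genes and all 14 fibroblast genes are higher, and no endothelial gene is, beside 8.55% of all genes.

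Markers of other cells that a muscle sample could hold were measured beside these lists. Against 8.55% of all genes, 5 of 7 monocyte and neutrophil genes were higher, among them S100a4 (1.17 ± 0.22), Csf3r (1.07 ± 0.21), Fn1 (0.93 ± 0.13) and S100a6 (0.77 ± 0.12), 3 of which fibroblasts also express. Ly6c2, the defining gene of inflammatory monocytes in this list, did not pass (0.12 ± 0.32, adjusted p = 0.859), and the neutrophil genes S100a8, S100a9 and Ly6g were not analysed here. Of 5 dendritic cell genes, Cd209a (0.89 ± 0.20), Irf4 (0.83 ± 0.17) and Cd83 (0.79 ± 0.20) were higher. Zbtb46, the member with the highest level of those that did not pass, lay slightly below 0 (-0.12 ± 0.0965, limma, adjusted p = 0.47). Siglech did not pass either (0.36 ± 0.21, adjusted p = 0.268). Of the 2 lymphocyte genes measured, Thy1 passed (0.53 ± 0.13), which fibroblasts also make. None of 6 mast cell genes passed; Cpa3, a mast cell protease, differed by 0.54 ± 0.25 (adjusted p = 0.149). The summed levels overlapped for all 3 of these lists: 127 to 322 CPM in the high and 69.9 to 171 in the low group for the monocyte and neutrophil genes, 8.08 to 20.7 and 8.76 to 15.2 for the dendritic cell genes, and 7.95 to 26 and 7.46 to 22.2 for the mast cell genes. The part of these cells in the differences was not tested.

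Connective tissue genes were higher together with the macrophage genes. All 14 fibroblast genes passed as higher, beside 8.55% of all genes, with a median of 0.69 and a range of 0.37 to 0.96. Col3a1, the collagen III chain, ranged from 7.70 to 9.85 (median 8.31) in the high and 6.67 to 8.16 (median 7.51) in the low group. In 16 of 23 high animals it exceeded every low animal, and the difference was 0.93 ± 0.14 (limma, adjusted p = 3.53e-06). The collagen I genes Col1a2 and Col1a1 differed by 0.96 and 0.92, and Pi16, a marker of adventitial fibroblasts, by 0.91 ± 0.19. In a list of tendon and fascia genes drawn up after the first results, 10 of 11 were higher, beside 8.55% of all genes (median 1.04). Among them were Kera (1.43 ± 0.32), Tnmd (1.43 ± 0.27), the lubricin gene Prg4 (1.29 ± 0.22) and Col14a1 (1.17 ± 0.16). A list of matrix remodelling genes, drawn up at the same point, had 12 of 15 higher, beside the same 8.55% (median 0.68). These included Postn (1.15 ± 0.26), Tnc (1.13 ± 0.20), the crosslinking enzyme Lox (1.05 ± 0.13) and the collagen-modifying enzyme Plod2 (1.02 ± 0.24). Those lists were chosen on these animals and give no independent evidence of direction. The tendon genes summed to a median of 238 CPM in the high group (78.2 to 314) and 95.5 in the low group (44 to 229), and 13 of 23 high animals lay above every low animal.

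No endothelial (10), pericyte and smooth muscle (9), Schwann cell (9), blood (7) or satellite cell and regeneration gene (11) passed in either direction with the deposited values. Of all genes 8.55% were higher and 4.91% lower, and in lists of 7 to 11 genes an absence of calls lies near those shares. The median differences of these lists, in the same order, were 0.00, 0.09, -0.04, 0.72 and 0.09. The blood value rests on wide ranges: Hba-a1, an alpha-globin gene with a near-identical copy, ran from 6.29 to 13.59 in the high and 6.55 to 9.90 in the low group (0.71 ± 0.38, limma, adjusted p = 0.225). Of 10 adipocyte genes only Cfd, which encodes adipsin, was higher (0.97 ± 0.33), a share near the 8.55% of all genes, and it did not pass without the 2 highest-scoring animals (adjusted p = 0.0566). Of 6 proliferation genes only Rrm2, a subunit of the enzyme that makes deoxynucleotides, passed, beside the same 8.55% of all genes. Its difference was 0.88 ± 0.26 (limma, adjusted p = 0.0166), a call lost after quantile normalization. Top2a, Cdk1 and other cell cycle genes were not analysed here.

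On the muscle side, genes of fast glycolytic fibres were slightly lower with the deposited values, and the count depended on the scaling of the libraries. Of 11 such genes 6 were lower (4.91% of all genes), with a median of -0.18; the count was 8 after centring each animal on its median, beside 11.3% of all genes, and 0 after quantile normalization, beside 2.93%, where the median was -0.02. Myh4, the heavy chain of the fastest fibres, ranged from 14.96 to 16.12 (median 15.81) in the high and 15.40 to 16.35 (median 16.02) in the low group. The ranges overlapped almost wholly, and the difference was -0.23 ± 0.072 (limma, adjusted p = 0.026), a call lost with blocks as a covariate. Actn3 differed by -0.30 ± 0.074, Tnnt3 by -0.20 ± 0.045 and the calcium pump Atp2a1 by -0.21 ± 0.056, the last with 0.02 after quantile normalization, while Pvalb did not pass (-0.20 ± 0.081, adjusted p = 0.0932). The linear values of the fast fibre genes summed to a median of 145200 in the high and 163900 in the low group. Whole libraries also summed to less in the high group (medians 969518 and 1042564), and the share of the library was not tested. None of 9 slow fibre genes and none of 14 genes of oxidative phosphorylation passed, beside 8.55% of all genes higher and 4.91% lower. The medians of these 2 lists were -0.05 and -0.08, and 1 of the 14 oxidative phosphorylation genes had a positive difference. After centring, 3 of the 14 were lower, beside 11.3% of all genes, and none was after quantile normalization.

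Of 22 genes of insulin signalling and GLUT4 traffic none was higher and 2 were lower, beside 8.55% and 4.91% of all genes. Gsk3a, a kinase that insulin restrains, differed by -0.19 ± 0.04 (limma, adjusted p = 0.000454), with overlapping ranges of 6.0 to 6.67 and 6.38 to 6.80. Rab10, a GTPase of GLUT4 vesicles, differed by -0.12 ± 0.041, a call lost without the 2 highest-scoring animals (adjusted p = 0.0552). Slc2a4, the GLUT4 gene, had medians of 8.69 and 8.70 (-0.069 ± 0.047, adjusted p = 0.364), and Akt2 did not pass either (-0.10 ± 0.073, adjusted p = 0.425).

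Of 37 genes of ceramide metabolism 7 were higher and 1 was lower (median 0.12), beside 8.55% and 4.91% of all genes. After quantile normalization 4 were higher, beside 5.67% of all genes. Cers2, the synthase of very long-chain ceramides, ranged from 4.08 to 4.72 (median 4.50) in the high and 3.94 to 4.61 (median 4.23) in the low group. The groups overlapped in most animals, and the difference was 0.20 ± 0.057 (limma, adjusted p = 0.0126). Cers1, the synthase typical of muscle fibres, did not pass (0.056 ± 0.091, adjusted p = 0.754). Among the genes that passed, the widest differences were in Smpd3 (0.95 ± 0.21), a sphingomyelinase, in the synthase Cers6 (0.81 ± 0.22) and in Sgpl1 (0.48 ± 0.081), the lyase that ends sphingolipid breakdown. The call for Cers6 was lost after quantile normalization, and with the fibroblast score as a covariate its difference was -0.17. Ormdl2, a regulator of the first step of synthesis, differed by 0.45 ± 0.16, a call lost without the 2 highest-scoring animals (adjusted p = 0.0617). The lower gene was the sphingomyelin synthase Sgms1 (-0.26 ± 0.066), named after its value was seen.

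None of the 10 genes with the largest decrease, among those that passed and had a mean of at least 1, belonged to a list. Pnrc1, a nuclear receptor coactivator, had the smallest p among them: it ranged from 6.22 to 7.05 (median 6.56) in the high and 6.51 to 7.79 (median 7.12) in the low group, a difference of -0.54 ± 0.086 (limma, adjusted p = 7.99e-06). The ranges overlapped, but the median of the low group lay above every high animal. Pim1, a kinase induced by cytokines, differed by -0.67 ± 0.17, and Rictor, a subunit of the mTORC2 complex, by -0.46 ± 0.093. Hpn (-0.52 ± 0.15), Mical2 (-0.49 ± 0.15) and Tafa5 (-0.57 ± 0.20) were lower as well, though Tafa5 did not pass with blocks as a covariate and Mical2 not after quantile normalization. Pde4b, 2310065F04Rik, Gm38560 and Atcay, with differences of -0.45, -0.56, -0.55 and -0.49, kept no call without the 2 highest-scoring animals (adjusted p from 0.0514 to 0.122). The gene lower by more than 1, with a mean under that limit, was Gm42743 (-1.12 ± 0.38), which ran from -3.86 to 0.44 in the high and -3.86 to 1.14 in the low group, and it too did not pass without them (adjusted p = 0.0596).

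The 46 middle animals took no part in the comparison and span a narrow stretch of the score, from -0.570 to 0.458. Within them 17 genes rose with the score (0.127% of 13438) and 0 fell by limma with Benjamini-Hochberg adjustment, with 1106 genes at an unadjusted p under 0.05. They were Rac2, Cybb, Cd48, Ly86, Itgb2, Rasa3, Cd68, Lcp1, F13a1, Tmem176b, Fn1, C1qb, Lyz2, C1qc, Laptm5, Idh1 and Rnase4, named after their values were seen; 9 rose after quantile normalization and 8 with blocks as a covariate. With a score from the pan-macrophage list 30 genes rose and 3 fell, but 4 of the 17 were among them, namely Itgb2, Lcp1, C1qb and C1qc. Another 10 were tested and did not pass, Cybb and F13a1 included, and the remaining genes belong to that score. With the main score Lcp1 rose by 0.75 ± 0.11 (SE) per unit of score (adjusted p = 0.000258), the oxidase gene Cybb by 1.03 ± 0.18 and F13a1 by 0.69 ± 0.12. All but Rac2 and Rasa3 were also higher in the high group: Rac2, an oxidase regulator of blood cells, differed by 0.72 ± 0.29 there (adjusted p = 0.0875). Of the 1149 genes higher in the high group, 87.4% had a positive slope in the middle animals, and of the 660 lower genes 77.9% had a negative one, against 50.2% and 49.8% of all genes tested. For the pan-macrophage list 17 of 18 slopes were positive and for the fibroblast list 13 of 14. For the fast fibre list 3 of 11 slopes were positive, none passed, and the median was -0.02.

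Because fibroblast and macrophage scores rose together, each gene was also fitted on both scores in all 92 animals, and the difference between the 2 slopes was tested by limma. The macrophage slope was the larger in 178 of 13424 genes (1.33%) and the fibroblast slope in 265 (1.97%). Genes with the larger macrophage slope included 9 of 18 pan-macrophage, 7 of 15 Fc receptor and ITAM, 6 of 16 complement, 6 of 29 lysosome and 5 of 17 oxidase and uptake genes. Counts were lower for MHC class II (1 of 11), resident macrophage (2 of 19), chemokine (1 of 14) and interferon genes (0 of 18), none of which had the larger fibroblast slope. Those with the larger fibroblast slope included 6 of 11 tendon, 4 of 10 endothelial and 2 of 6 mast cell genes, and also 1 complement gene, Serping1, the C1 inhibitor (-0.29 ± 0.073, SE, for the macrophage minus the fibroblast slope, limma, adjusted p = 0.0103), named after its value was seen. The monocyte and neutrophil list held 1 gene of each kind. The tendon list was drawn up after the first results on these animals, so its count gives no independent evidence here either. Genes of the 2 scores themselves were left out.

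The widest difference was in Mt2, a metallothionein that binds zinc and copper (2.89 ± 0.59 log2 units per SD, adjusted p = 0.000962), and its neighbour Mt1 had 1.84 ± 0.41. Lgals3, the lectin galectin-3, had 1.90 ± 0.26 (adjusted p = 4.96e-07), Gpnmb 1.56 ± 0.28 and Prune2 1.56 ± 0.31. In the comparison of groups Mt2 was higher by 1.40 ± 0.49, with a range of -0.42 to 6.18 in the high and -1.50 to 5.15 in the low group, and did not pass without the 2 highest-scoring animals (adjusted p = 0.132). On the fibroblast side stood Kera, a proteoglycan gene of cornea and tendon (-1.81 ± 0.32, adjusted p = 0.000173), Cyp26b1, a retinoic acid hydroxylase (-1.66 ± 0.44), Fmod (-1.48 ± 0.27), Tnmd (-1.47 ± 0.26) and Chad (-1.40 ± 0.36).

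**Figure D5:**
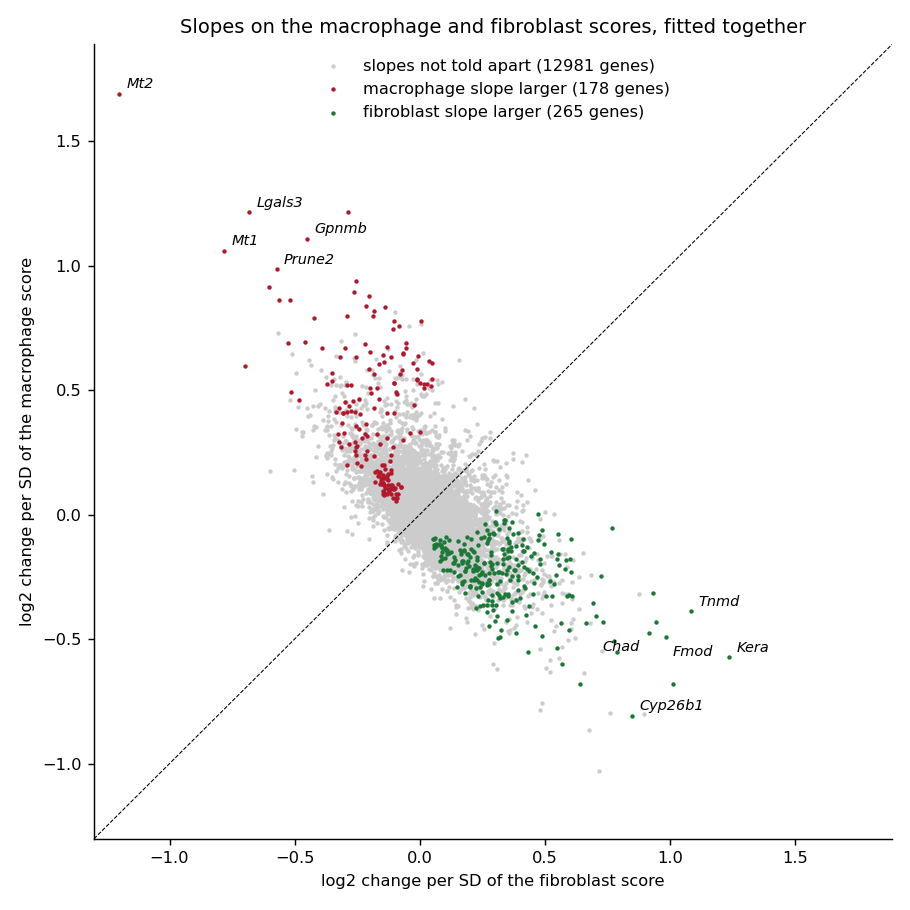
Change in log2 value per SD of the macrophage score (y axis) against that per SD of the fibroblast score (x axis), both from 1 model over 92 animals, 1 point a gene; the dashed line marks equal slopes. The 178 genes with a larger macrophage slope (red) reach from Gpnmb and Lgals3 to Mt2, and the 265 with a larger fibroblast slope (green) end in Kera and Tnmd; the 2 scores fitted together were themselves correlated (r = 0.834).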

How the data were processed

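Poly(A) RNA-seq of quadriceps from 92 mice was deposited as 1 table of log2 values that the authors had made. The submitters' processing notes name bcl2fastq, MultiQC, kallisto 0.50.1, edgeR and mm10, without role or order, and the exact scaling is not given in the sources used here. The linear values of a library summed to 898071 to 1140761, so depth is unknown and precision comes from the spread between animals alone. Whether counting used strand is not given in the sources used here either.

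Of 13456 lines 15 were identical repeats, leaving 13441 genes. Csf1r, Mrc1 and Ctss were standardised over 92 animals and averaged, and the 23 highest animals were compared with the 23 lowest over the 13438 other genes with limma 3.58.1 (R 4.3.3), with a trend of variance on level, and p-values adjusted by Benjamini and Hochberg at 0.05. In the 46 other animals the slope on the score was fitted in the same way, as was the difference between macrophage and fibroblast slopes over all 92, without the genes of either score. Nothing in the labels says more of the animals than that each sample is separate, so p-values measure the spread between these samples.

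The groups were chosen by the score, and the members, the 30 gene lists and 2 later lists (tendon and matrix) were chosen with earlier results of these data known. Of 489 listed symbols 394 were in the table. Genes named are the 10 higher and 10 lower with the largest difference and a mean of at least 1, the 5 most correlated with the score, per list up to 4 that passed and up to 3 that did not, the 5 of each sign with the largest slope difference, Cers1 and Cers2. Genes outside that rule are marked where they appear. Alternatives changed the score genes, the group size, covariates, scaling, the filter, the offset (log2 of the value plus 1) and the test; 4 were added after seeing the data.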

Additional observations from a re-analysis of the deposited data

How the results depend on the processing

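Precision is limited by an unknown depth and by groups that were cut from a continuous score. With the fibroblast score as a covariate, 0 genes were higher and 0 lower, and likewise with 5 cell type scores (0 and 0); the 2 scores were correlated (r = 0.834), and the cause was not tested. With the summed value and median of each library as covariates, added after seeing the data, 52 were higher and 3 lower, and of 105 named genes that passed 19 kept the call, 85 lost it and 1 changed sign. Quantile normalization left 762 and 394, centring gave 1517 lower genes and a slope over all 92 animals 1373. The other settings, among them 15 or 30 animals a group, scores without 1 of the 3 genes, blocks, log2(value + 1), a Wilcoxon test and the loss of the 2 highest animals, moved neither count by over 1.5 times. In the middle animals, 17 rising genes became 9 after quantile normalization, 8 with the block as a covariate and, with the pan-macrophage score, 30, with 3 falling, of which 4 were among the 17. The counts of slope differences stayed within 1.5 times under all 5 settings tried.

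Among the genes named, signs turned as follows, on the log2 scale. With the fibroblast score: Tlr7 -0.44, Rac2 -0.032, Fn1 -0.0045, Ly6c2 -0.14, Thy1 -0.16, Cpa3 -0.24, Cers6 -0.17, Gsk3a 0.0020 and Pde4b 0.019. With the 5 cell type scores: Abca1 -0.012, Ctsh -0.019, Tlr7 -0.56, Rac2 -0.21, Fn1 -0.076, Ly6c2 -0.27, Thy1 -0.16, Cpa3 -0.18, Col14a1 -0.062, Cers6 -0.21, Atp2a1 0.020, Gsk3a 0.033, Akt2 0.020 and Pde4b 0.12. With quantile normalization: Ly6c2 -0.025, Atp2a1 0.018 and Slc2a4 0.035. With the library covariates: Rab10 0.0041. Cers1, which did not pass, was at -0.028 with the pan-macrophage score, -0.00091 without Csf1r, -0.028 as a slope over all animals and -0.0031 with the block. Calls were lost after quantile normalization for Runx1, Il1r1, Icam1, Ifit1, Hmox1, Cfd, Actn3, Myh4, Tnnt3, Rab10, Cers6, Ormdl2, Rrm2, 2310065F04Rik, Mical2, Pde4b and Mt2, and with the block as a covariate for Il1r1, Myh4, Ormdl2, Tafa5, Gm38560, Atcay and Gm42743. Of 105 named genes that passed, 94 also passed without the 2 highest-scoring animals. No paired analysis was possible because the labels give 1 group and no numbers shared between groups.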
